A study of Homo sapiens with 2 samples.

Results

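The genes described here are 35 genes of glycolysis and of the response to low oxygen, listed by symbol with earlier results of these data known. All 35 are listed among the 31082 genes of the WT library and the 30050 genes of the KO library. They fall into 17 glycolytic enzymes, 3 kinases that set the flux through glycolysis and into the mitochondrion, 3 transporters, and 12 genes of the hypoxia-inducible factor (HIF) system and its targets. Both libraries come from human embryonic stem cells of the established line H1 (WA01). WT carries intact ZNF263, a zinc finger transcription factor gene, and KO is homozygous for its deletion by Cas9. The KO sample carries a single line name, so it stands for that line only. Each genotype has 1 library, so no test between genotypes is possible and values are given for both libraries with 95% intervals that cover counting error only.

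UMIs (unique molecular identifiers, 1 per captured RNA molecule) were summed over 2 classes of barcodes that share no barcode within a library. Kept barcodes, taken as cells, reached 1000 UMIs and 500 genes, with no more than 20% of UMIs from the mitochondrial genome (MT): 2935 in WT with 4650391 UMIs, and 2286 in KO with 3567881 UMIs. Shallow barcodes had from 250 to under 1000 UMIs: 56837 in WT with 23784553 UMIs and 50551 in KO with 21086560 UMIs. Levels are in CPM, which are UMIs per 1000000 UMIs of the class. The libraries share 834126 barcode sequences in all, 20 among kept and 4665 among shallow barcodes. Leaving those 20 out gave medians of -0.36 for the enzymes and -0.51 for the HIF genes, against -0.34 and -0.50 with them. ZNF263 itself was at 17.8 CPM in WT and 7.57 CPM in KO kept barcodes, and its remaining tags do not check the label, since the labels do not say which part was deleted. Of 12 pluripotency markers all were at 10 CPM or more in kept barcodes, with a summed level of 4586 CPM in WT and 5414 CPM in KO, and the 7 fibroblast markers together were at 308 and 420 CPM, with DCN at 0 in both. Neuroectoderm markers (10 genes) summed to 465 CPM in WT and 291 CPM in KO, primitive streak and mesoderm markers (7 genes) to 38.5 and 14.01 CPM, endoderm markers (6 genes) to 9.89 and 17.4 CPM with CXCR4 at 0 in both, and amnion and trophoblast markers (6 genes) to 10.1 and 7.01 CPM with ISL1 at 0 in both and CGA not listed. Their part in the results was not tested beyond the values given without barcodes that hold neuroectoderm UMIs.

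Glycolysis splits glucose into pyruvate in the cytosol and yields ATP without oxygen, and lactate dehydrogenase turns pyruvate into lactate and restores the NAD that the pathway uses. Human pluripotent stem cells of the primed state, such as H1, are known to rely strongly on glycolysis even when oxygen is present. HIF1A is the oxygen-regulated subunit of the factor that raises many glycolytic genes: in oxygen, prolyl hydroxylases of the EGLN family mark it, the VHL complex tags it and it is degraded, and in low oxygen it pairs with ARNT and binds short sites whose core is ACGTG or GCGTG.

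That core is shown in the 250 bases before the transcription start of 5 genes, chosen among those with a mean of at least 10 CPM in kept barcodes. They are the 3 HIF genes with the lowest KO over WT ratios (BNIP3, DDIT4 and P4HA1), the transporter gene with the lower ratio (SLC2A1) and the HIF gene that was higher in KO there (ADM). Sequences are from RefSeq on GRCh38.p14, 5′ to 3′ on the gene's strand, and capitals mark ACGTG or GCGTG on either strand, where neighbouring matches can overlap. They lie at chr10:131981924-131982173 (minus strand), chr10:72273674-72273923 (plus), chr10:73096867-73097116 (minus), chr1:42958869-42959118 (minus) and chr11:10304823-10305072 (plus).
BNIP3: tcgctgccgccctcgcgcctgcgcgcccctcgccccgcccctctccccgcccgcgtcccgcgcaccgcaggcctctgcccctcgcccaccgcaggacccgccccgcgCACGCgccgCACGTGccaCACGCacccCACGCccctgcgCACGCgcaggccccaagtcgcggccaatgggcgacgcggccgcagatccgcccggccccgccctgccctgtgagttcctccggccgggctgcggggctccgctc
DDIT4: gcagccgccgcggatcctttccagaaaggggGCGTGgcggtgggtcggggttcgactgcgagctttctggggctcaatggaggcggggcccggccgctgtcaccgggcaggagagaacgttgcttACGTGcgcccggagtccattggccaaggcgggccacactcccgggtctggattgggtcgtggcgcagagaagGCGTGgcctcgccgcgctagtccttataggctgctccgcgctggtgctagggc
P4HA1: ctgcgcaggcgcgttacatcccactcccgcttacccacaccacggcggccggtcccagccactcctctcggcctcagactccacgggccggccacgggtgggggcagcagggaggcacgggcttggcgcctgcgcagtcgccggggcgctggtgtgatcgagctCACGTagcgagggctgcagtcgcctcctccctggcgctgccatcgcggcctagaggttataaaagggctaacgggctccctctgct
SLC2A1: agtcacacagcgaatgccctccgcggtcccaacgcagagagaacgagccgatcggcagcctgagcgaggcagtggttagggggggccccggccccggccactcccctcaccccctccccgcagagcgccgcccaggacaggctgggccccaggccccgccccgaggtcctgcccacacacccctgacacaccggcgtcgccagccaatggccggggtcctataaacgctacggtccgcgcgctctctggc
ADM: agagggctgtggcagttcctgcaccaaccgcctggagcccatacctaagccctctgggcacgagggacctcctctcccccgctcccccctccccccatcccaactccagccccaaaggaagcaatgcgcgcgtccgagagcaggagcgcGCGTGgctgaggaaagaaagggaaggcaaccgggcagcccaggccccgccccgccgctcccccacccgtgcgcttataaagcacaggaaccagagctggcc
The BNIP3 window holds 6 matches, DDIT4 3, P4HA1 1, SLC2A1 0 and ADM 1. At least 1 match is held by 43.2% of all 35116 promoter windows from RefSeq, against 19 of 37 windows of the enzymes and 8 of 10 windows of the HIF group. Of the 35 members 31 have a window there. GGAGGA, the repeated unit of the motif described for ZNF263, is in 31.8% of all windows and in 22 of the 58 windows of members, among them 1 match each in BNIP3 and P4HA1 and 0 in DDIT4, SLC2A1 and ADM. A match in these letters describes the sequence and shows no binding.

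In the kept barcodes 27 of the 35 members reached a mean of 10 CPM over both libraries and are called measured. Of these, 21 were lower in the KO library and 6 higher, beside 65.7% of all 8056 measured genes that were lower. A difference of 1.5-fold or more was reached by 6 members downward and 0 upward, beside 9.89% of all measured genes lower and 2.82% higher. The 6 were BNIP3, DDIT4, P4HA1, BNIP3L, SLC2A1 and PKM. Taken as log2 of KO over WT, the ratio had its median at -0.38 among the 27 members and at -0.13 among all measured genes, so the members' median lay -0.25 from that of all genes. The 6 members that were higher were HK2, GPI, PFKP, PGAM1 and LDHB among the enzymes and ADM in the HIF group.

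**Figure D1:**
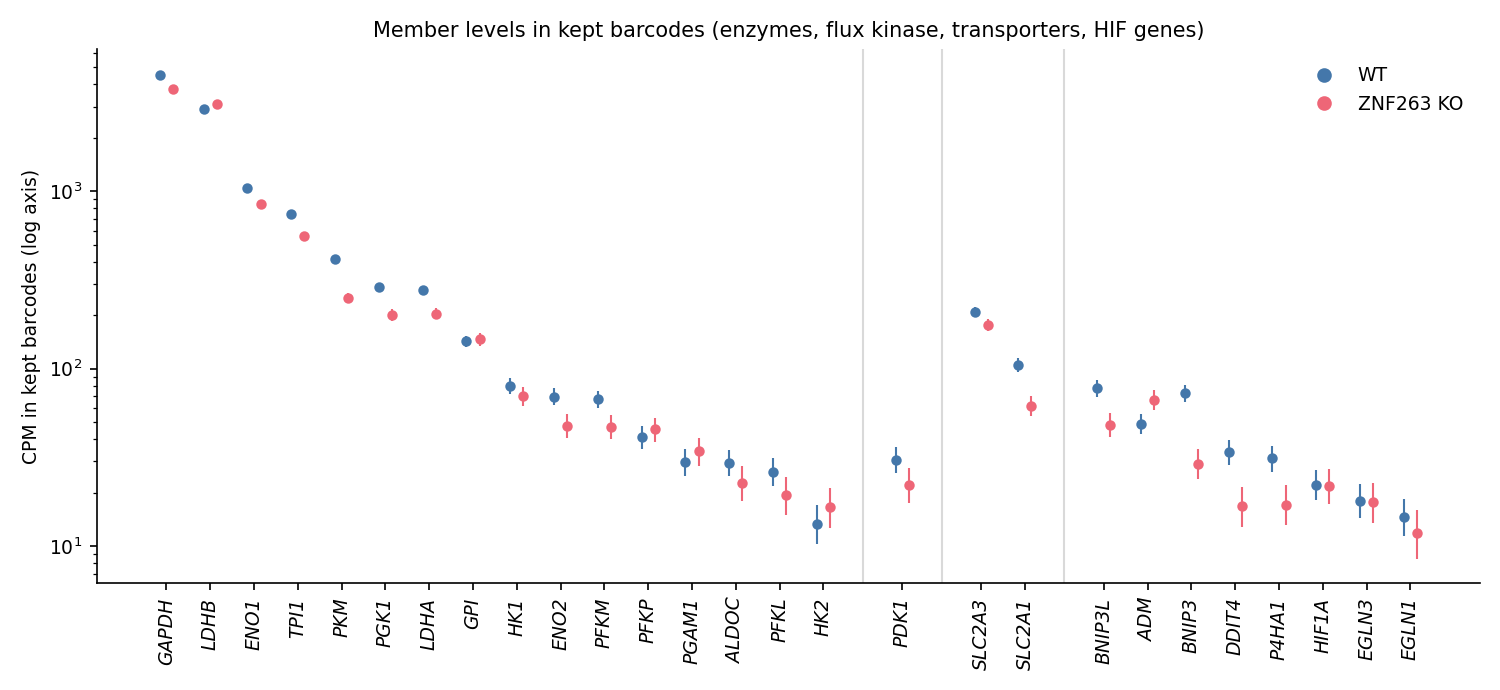
Level of the 27 measured members in kept barcodes, in CPM on a log axis, for WT and ZNF263 KO, each with its exact Poisson interval, grouped as enzymes, flux kinase, transporters and HIF genes. PKM is at 418 CPM in WT and 249.7 CPM in KO, and LDHB and ADM are among the members whose KO point lies above the WT point.

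The glycolytic enzymes had a median log2 ratio of -0.34 over 16 measured members (-0.21 relative to all genes). Of the 16, 11 were lower and 5 higher in the KO library, near the 65.7% of all measured genes that were lower. In the first steps, HK1, the hexokinase that traps glucose in the cell as its phosphate, was at 80.0 CPM in WT and 70.1 CPM in KO, and its relative HK2 at 13.3 and 16.5 CPM. The intervals of both log2 ratios, -0.43 to 0.04 and -0.23 to 0.85, included 0. A listed pseudogene of HK2 held 18 UMIs in WT and 11 in KO. With it added the HK2 log2 ratio was 0.19, against 0.31 alone. GPI, the isomerase of glucose 6-phosphate, was at 142 and 146 CPM, a log2 ratio of 0.04 that is -0.05 when each barcode is thinned to 1000 UMIs. In shallow barcodes HK1 was at 77.0 and 70.4 CPM (-0.13, interval -0.23 to -0.03), and the intervals of HK2 and GPI again included 0.

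The 3 subunit genes of phosphofructokinase, the committed step of glycolysis, did not move alike. PFKM, the muscle-type subunit, was at 67.3 CPM in WT (313 UMIs) and 47.1 CPM in KO (168 UMIs), a log2 ratio of -0.52 (interval -0.79 to -0.24) that was -0.29 after thinning to 1000 UMIs and -0.78 in barcodes with at least 2000. PFKL, the liver type, was at 26.2 and 19.3 CPM, with a log2 ratio of -0.44 that was -0.71 in shallow barcodes and 0.22 in barcodes with at least 2000 UMIs. PFKP, the platelet type, was at 41.1 and 45.4 CPM, with a log2 ratio of 0.14 (interval -0.17 to 0.45) that was 0.32 (interval 0.18 to 0.45) in shallow barcodes and -0.10 in the deepest. As shares of the set's UMIs, which do not depend on the scaling of the libraries, PFKP made up 30.5% in WT (interval 26.9% to 34.3%) and 40.6% in KO (interval 35.7% to 45.6%), and in shallow barcodes 30.8% (interval 29.2% to 32.5%) and 42.0% (interval 40.1% to 44.1%). PFKM held 313 of the set's 626 UMIs in WT and 168 of 399 in KO. The intervals of the PFKP shares do not overlap in either class. Shares were compared in 8 isozyme sets. In the pairs HK1 and HK2, ALDOA and ALDOC, ENO1 and ENO2, and PFKFB3 and PFKFB4 the intervals overlapped in both classes. HK2 made up 14.3% of its pair in WT kept barcodes (interval 11.1% to 17.9%) and 19.1% in KO (interval 14.9% to 23.9%). ENO2 made up 6.22% (interval 5.58% to 6.92%) and 5.33% (interval 4.57% to 6.16%).

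ALDOC, an aldolase, which splits the 6-carbon sugar, was at 29.5 CPM in WT and 22.7 CPM in KO, and its ratio differed in sign between classes, at -0.38 in kept and 0.13 in shallow barcodes. ALDOA, the aldolase of most tissues, had only 5 UMIs in WT and 3 in KO. Another annotated gene, LOC112694756, overlaps it on chromosome 16, so its counts are uncertain and no level is drawn from them.

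The enzymes from the triose step on to enolase were lower in the KO library, except PGAM1. TPI1, which interconverts the triose phosphates, was at 748 CPM in WT and 560.3 CPM in KO, a log2 ratio of -0.42 (interval -0.50 to -0.34). GAPDH, which makes NADH at the triose step, was at 4550.4 and 3793 CPM (-0.26, interval -0.29 to -0.23), and ENO1, the common enolase, at 1046 and 847 CPM (-0.30, interval -0.37 to -0.24). The ratios of GAPDH and ENO1 were -0.13 and -0.18 relative to the median of all genes, and they were -0.15 and -0.19 when the libraries were scaled by the median ratio. Listed pseudogenes held 478 UMIs in WT and 243 in KO for TPI1, and 3066 and 1663 for GAPDH. With them added the log2 ratios were -0.44 for TPI1 and -0.29 for GAPDH. ENO2, the neuronal enolase, was at 69.5 and 47.6 CPM (-0.54, interval -0.82 to -0.27), though -0.33 in shallow barcodes and -0.29 at a minimum of 500 UMIs. PGAM1, a phosphoglycerate mutase, was at 29.7 and 34.2 CPM, and the interval of its ratio, -0.16 to 0.57, included 0.

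PGK1, the first ATP-yielding kinase of the pathway (chromosome X, 78104248 to 78129295), was at 288 CPM in WT (1341 UMIs) and 201 CPM in KO (716 UMIs), a log2 ratio of -0.52 (interval -0.66 to -0.39). The shallow barcodes held 6421 and 4217 UMIs of it (-0.43). TAF9B, a transcription initiation factor gene, has a span that lies 453 bases from that of PGK1, and it held 201 UMIs in WT and 4 in KO. The part of that neighbourhood in the PGK1 value was not tested.

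PKM, the pyruvate kinase that ends glycolysis (chromosome 15, 72199029 to 72231591), had the lowest ratio of the enzymes. It was at 418 CPM in WT (1943 UMIs, interval 399 to 437) and 249.7 CPM in KO (891 UMIs, interval 234 to 267), 1.67-fold lower (interval 1.54 to 1.81), and lower than 94.6% of all measured genes in its ratio. Shallow barcodes gave 464 and 277 CPM, again 1.67-fold lower. Among the 1595 genes at a mean of at least 100 CPM, where counting error is small, 1.94% were lower in KO by that 1.5-fold. No other enzyme passed 1.5-fold in kept barcodes, and PFKL did so in shallow ones.

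The lactate dehydrogenase genes went opposite ways. LDHA, whose subunit favours lactate formation, was at 276 CPM in WT (1283 UMIs) and 204 CPM in KO (728 UMIs), a log2 ratio of -0.44 (interval -0.57 to -0.30). LDHB, whose subunit favours the return to pyruvate, was at 2893 CPM in WT (13452 UMIs) and 3113 CPM in KO (11107 UMIs), a log2 ratio of 0.11 (interval 0.07 to 0.14). LDHA made up 8.71% of the pair's UMIs in WT (interval 8.26% to 9.17%) and 6.15% in KO (interval 5.72% to 6.60%). Among shallow barcodes LDHA made up 9.62% (from 9.40% to 9.84%) in WT and 6.58% (from 6.39% to 6.77%) in KO, while the difference was -1.50 points in barcodes with at least 2000 UMIs. LDHB also lay above the median of all genes, by 0.24, so both directions hold relative to all genes.

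Of the kinases that set flux, PDK1, which inhibits pyruvate dehydrogenase and so keeps pyruvate out of the mitochondrion, was at 30.8 CPM in WT (143 UMIs) and 22.1 CPM in KO (79 UMIs), a log2 ratio of -0.47 (interval -0.89 to -0.07). In shallow barcodes it was at 31.1 and 18.9 CPM (-0.72, interval -0.90 to -0.54). PFKFB3 and PFKFB4 make and break fructose 2,6-bisphosphate, the activator of phosphofructokinase, and were under 10 CPM. PFKFB3 held 52 UMIs in WT and 20 in KO kept barcodes, and 273 and 107 in shallow barcodes, where it was 2.26-fold lower. PFKFB4 held 50 and 27 UMIs, and 206 and 106 in shallow barcodes. The level of all 3 together was 52.7 CPM in WT and 35.3 CPM in KO, and 51.3 and 29.0 CPM in shallow barcodes.

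Among the transporters, SLC2A1, the GLUT1 glucose carrier (chromosome 1, 42925353 to 42958868), was at 105 CPM in WT (490 UMIs, interval 96.2 to 115) and 61.7 CPM in KO (220 UMIs, interval 53.8 to 70.4), 1.71-fold lower (interval 1.45 to 2.01). Shallow barcodes gave 126 and 88.3 CPM, 1.43-fold lower. SLC2A3, the GLUT3 carrier, was at 209 and 177 CPM, a log2 ratio of -0.24 (interval -0.39 to -0.10), and is uncertain because its close paralog SLC2A14 can share its reads. SLC2A1 made up 33.5% of the pair's UMIs in WT (interval 31.1% to 36.0%) and 25.9% in KO (interval 23.0% to 29.0%), and 33.5% and 30.5% in shallow barcodes, where the intervals (32.6% to 34.5% and 29.3% to 31.6%) also do not overlap. SLC16A3, the MCT4 lactate exporter, whose span overlaps CSNK1D, held 1 UMI in WT and 0 in KO, and the exact interval reaches 1.03 CPM in KO. The SLC16A3 transcript thus has too few UMIs to be compared here, and lactate export itself was not measured. Its relative SLC16A1 is described with the other genes of the pathway.

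**Figure D2:**
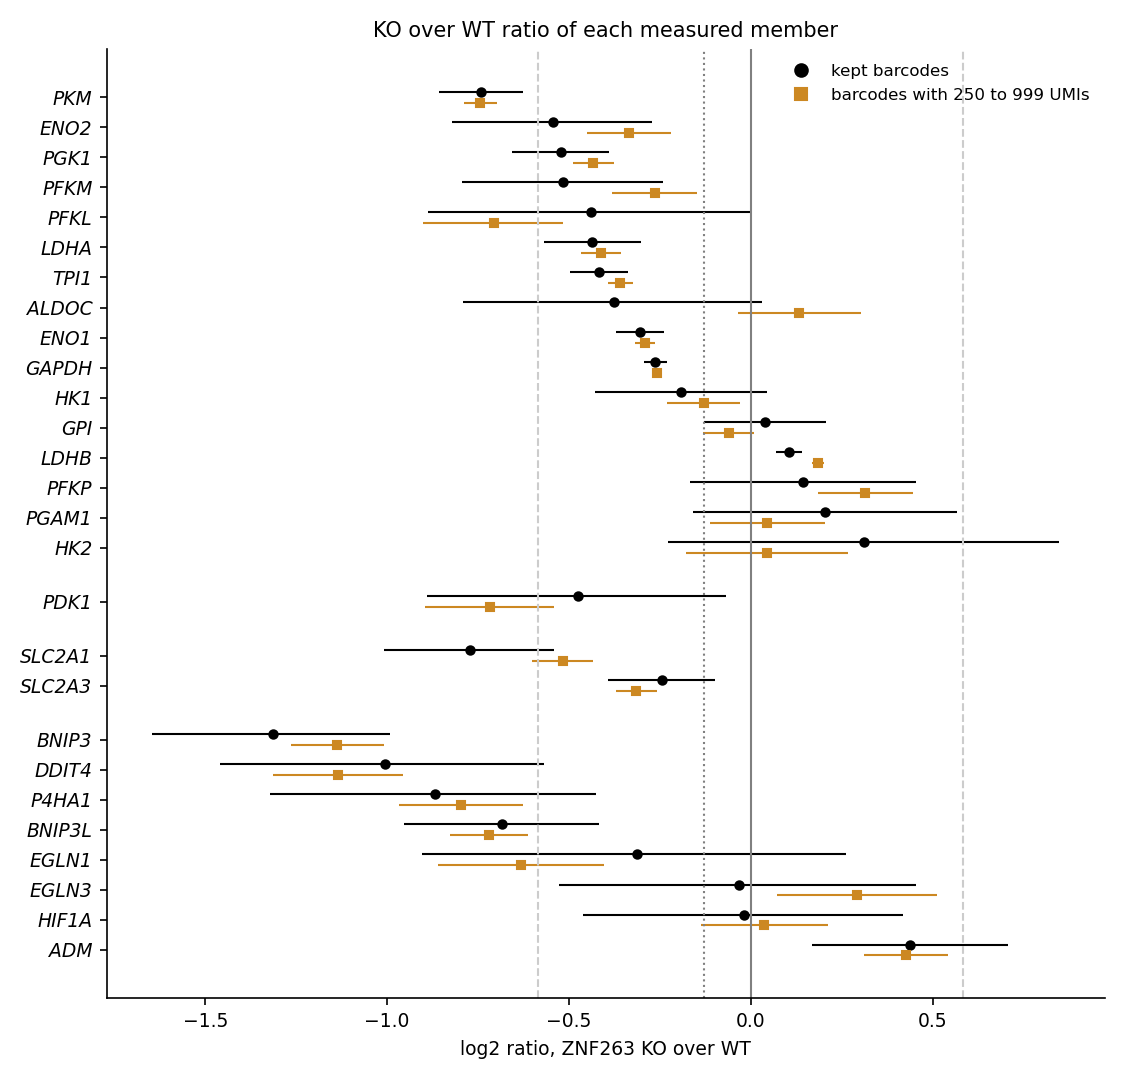
Log2 ratio of KO over WT for each measured member, with exact counting intervals, in kept barcodes (circles) and in shallow barcodes (squares). Dashed lines mark 1.5-fold and the dotted line the median of all genes in kept barcodes (-0.13). BNIP3 and DDIT4 have the lowest ratios in both classes, and ADM lies to the right of 0 in both.

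The HIF group had a median log2 ratio of -0.50 over 8 measured members (-0.37 relative to all genes). In it 4 members were lower in KO by 1.5-fold or more and 0 higher, beside 9.89% and 2.82% of all measured genes. In kept barcodes the intervals of the factor and its sensors included 0. HIF1A was at 22.1 CPM in WT (103 UMIs) and 21.9 CPM in KO (78 UMIs), a log2 ratio of -0.02 (interval -0.46 to 0.42) whose sign changed in 7 of 14 alternatives. EGLN3, a prolyl hydroxylase that HIF itself raises, was at 18.1 and 17.7 CPM (-0.03, interval -0.53 to 0.46) in kept barcodes, with a sign that changed in 8 of 14 alternatives, and at 13.7 and 16.8 CPM (0.29, interval 0.07 to 0.51) in shallow barcodes. EGLN1, the main oxygen sensor of this family, was at 14.6 and 11.8 CPM (-0.31, interval -0.90 to 0.26), and at 18.5 and 12.0 CPM (-0.63, interval -0.86 to -0.40) in shallow barcodes. The intervals of BNIP3, BNIP3L, DDIT4, P4HA1 and ADM, given below, did not include 0 in kept barcodes. ADM was higher in KO and the others lower. How these ratios relate to the level of the HIF1A transcript was not tested.

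BNIP3, a mitophagy receptor of the outer mitochondrial membrane (chromosome 10, 131967684 to 131981923), had the lowest ratio of all measured members. It was at 72.5 CPM in WT (337 UMIs, interval 64.9 to 80.6) and 29.1 CPM in KO (104 UMIs, interval 23.8 to 35.3), 2.49-fold lower (interval 1.99 to 3.13), and 98.9% of measured genes had a higher ratio. Shallow barcodes gave 73.3 and 33.3 CPM, 2.20-fold lower. Its span overlaps PPP2R2D, and 15 listed pseudogenes of BNIP3 held 79 UMIs in WT and 23 in KO, so its counts carry that uncertainty. With the pseudogenes added its log2 ratio was -1.33, against -1.31 alone. BNIP3L, its paralog with the same role, was at 77.4 and 48.2 CPM, 1.61-fold lower (interval 1.34 to 1.94), and at 83.5 and 50.7 CPM in shallow barcodes. The BNIP3L difference was under 1.5-fold with scaling by the median ratio (-0.57), with thinning (-0.58) and in barcodes with at least 2000 UMIs (-0.39). BNIP3 made up 48.4% of the pair's UMIs in WT (interval 44.6% to 52.1%) and 37.7% in KO (interval 31.9% to 43.7%), and 46.8% (interval 45.1% to 48.4%) and 39.7% (interval 37.4% to 42.0%) in shallow barcodes.

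DDIT4, the REDD1 inhibitor of mTORC1 signalling (chromosome 10, 72273924 to 72276036), was at 33.8 CPM in WT (157 UMIs, interval 28.7 to 39.5) and 16.8 CPM in KO (60 UMIs, interval 12.8 to 21.6), 2.01-fold lower (interval 1.48 to 2.75). In shallow barcodes it was at 38.1 and 17.4 CPM, 2.19-fold lower. P4HA1, a subunit of the collagen prolyl hydroxylase (chromosome 10, 73007217 to 73096866), was at 31.2 CPM in WT (145 UMIs) and 17.1 CPM in KO (61 UMIs), a log2 ratio of -0.87 (interval -1.32 to -0.43), and at 35.6 and 20.5 CPM in shallow barcodes. In kept barcodes 97.6% of measured genes had a higher ratio than DDIT4 and 96.4% a higher ratio than P4HA1.

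ADM, the gene of the vasodilator peptide adrenomedullin (chromosome 11, 10305073 to 10307397), was the measured member of the HIF group that was higher in the KO library in kept barcodes. It was at 49.0 CPM in WT (228 UMIs) and 66.4 CPM in KO (237 UMIs), a log2 ratio of 0.44 (interval 0.17 to 0.71), and at 47.1 and 63.3 CPM in shallow barcodes (0.43, interval 0.31 to 0.54). Thinning each kept barcode to 1000 UMIs gave 0.18. VEGFA, the angiogenic growth factor gene, had 33 UMIs in WT and 13 in KO kept barcodes, and 145 and 110 in shallow barcodes, where its log2 ratio of -0.22 had an interval of -0.60 to 0.14. NDRG1 held 7 and 2 UMIs, CA9, the tumour-type carbonic anhydrase, 3 and 0, and ANKRD37, whose span overlaps UFSP2, 0 in both, and none of these 3 can be compared on so few UMIs. The floor of 3 UMIs is 0.645 CPM in WT and 0.841 CPM in KO.

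In the shallow barcodes 27 members were again measured, with 19 lower and 8 higher in the KO library, beside 68.5% of all measured genes lower. Past 1.5-fold 8 members were lower and 0 higher, beside 8.02% of all 8097 measured genes lower and 2.32% higher. Of the members measured in both classes 18 were lower in both, 5 higher in both and 4 went opposite ways, and 5 were at least 1.5-fold lower in both. The matching shares of all genes over both classes were not computed, so these counts do not set the members apart. The HIF median was -0.67 and the enzyme median -0.26. Both classes come from the same 2 libraries and share their free RNA, so the second is no replicate of the first.

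The ratios were also followed over the depth of the barcodes. The summed UMIs of the HIF group had a log2 ratio of -0.53 in barcodes with 10 to under 100 UMIs, -0.50 from 100, -0.46 from 250, -0.51 from 500, -0.57 from 1000 and -0.32 (interval -0.54 to -0.11) from 2000 UMIs on. Summed over the enzymes without GAPDH and LDHB, which were left out after their large share of the sum was seen, the ratio stayed between -0.38 and -0.35 over the 6 bands. The sum of all 17 enzymes differed less, with ratios between -0.19 and -0.15 over the bands. In kept barcodes that full sum was at 10720 CPM in WT and 9418 CPM in KO, a log2 ratio of -0.19. Barcodes with 10 to under 100 UMIs, which can hold free RNA or traces of cells, had nearly the levels of the kept cells, with 352 CPM in WT and 244 CPM in KO for the HIF group, against 328 and 233 CPM in kept barcodes. Free RNA and RNA of the barcode's own cell were therefore not separated for these genes.

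**Figure D3:**
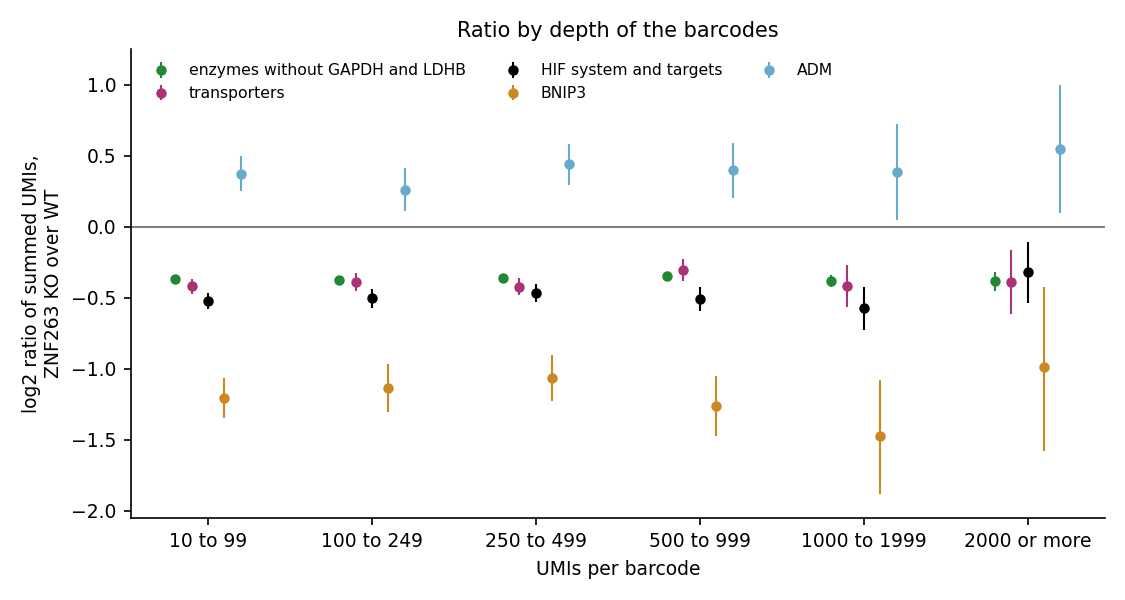
Log2 ratio of summed UMIs, KO over WT, with exact counting intervals, for barcodes in 6 bands of UMIs per barcode. BNIP3 lies between -1.47 and -0.99 and ADM between 0.26 and 0.54 over the bands.

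Mitochondrially encoded UMIs differ between the libraries and share the total with the members: they made up 4.58% of kept UMIs in WT and 5.45% in KO. Of the kept barcodes 31.6% in WT and 26.2% in KO had at most 2.5% MT UMIs, and 4.19% and 8.01% had more than 10%. Within bands of MT share the enzymes without GAPDH and LDHB had log2 ratios of -0.37 (at most 2.5%), -0.43 (2.5% to 5%), -0.30 (5% to 10%) and -0.37 (10% to 20%), and BNIP3 -1.33, -1.49, -1.15 and -0.84, the last on few UMIs with an interval of -2.69 to 0.96. The sum of all enzymes was at -0.21, -0.18, -0.12 and -0.18 in these bands. The HIF group was at -0.43, -0.71, -0.49 and -0.06 (interval -0.61 to 0.49). SLC2A1 was at -0.94, -0.69, -0.86 and -0.95.

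The groups themselves varied with the MT share in both libraries. Transporter UMIs were at 179.5 CPM in WT and 115 CPM in KO barcodes with at most 2.5% MT UMIs, and at 372 and 283 CPM with 2.5% to 5%. The enzymes without GAPDH and LDHB went the other way, from 3681 and 2847 CPM in the lowest band to 2788 and 2157 CPM in the highest. ADM was also higher with more MT UMIs, from 24.9 and 25.2 CPM in the lowest band to 69.5 and 89.8 CPM at 5% to 10%. Its KO over WT log2 ratio was 0.02 (interval -0.79 to 0.80) and 0.04 (interval -0.67 to 0.73) in the lower bands and 0.37 (interval 0.02 to 0.72) and 0.73 (interval -0.24 to 1.78) in the upper ones, beside 0.44 over all kept barcodes.

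**Figure D4:**
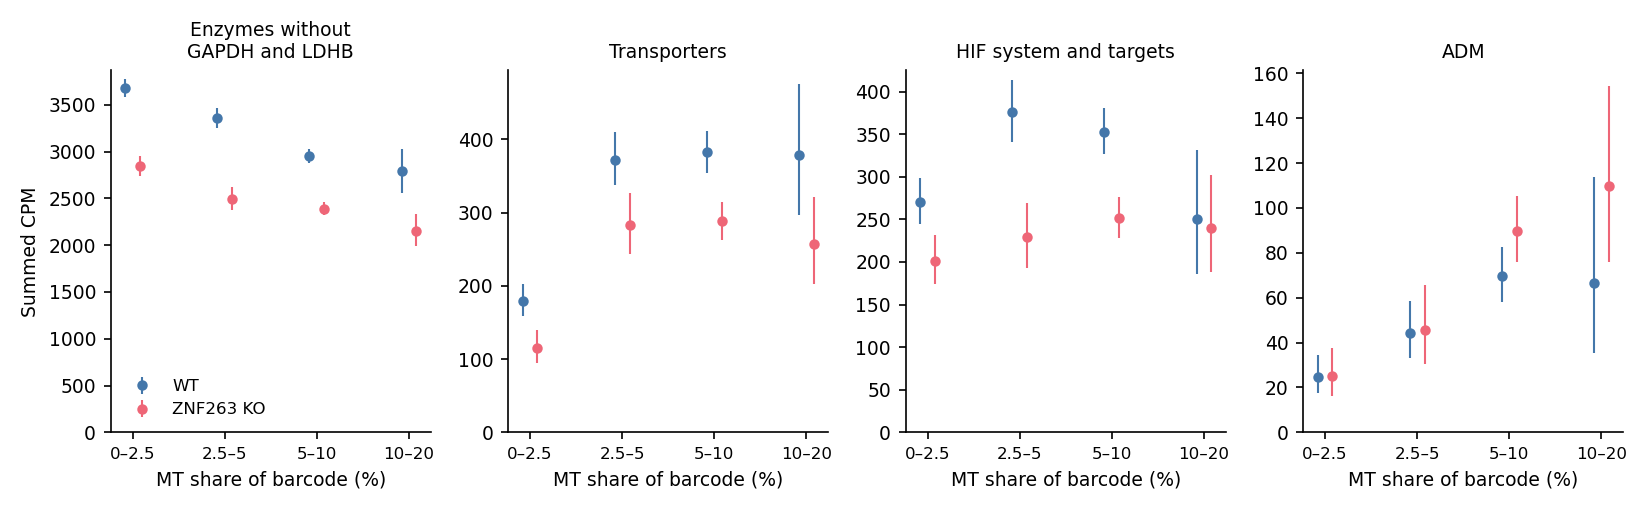
Summed level in CPM, on axes from 0, of the enzymes without GAPDH and LDHB, the transporters, the HIF group and ADM in kept barcodes, by band of MT share, for WT and KO with exact Poisson intervals. Enzyme levels are highest and transporter and ADM levels lowest in barcodes with at most 2.5% MT UMIs, and WT lies above KO in each band for the enzymes and the transporters.

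Neuroectoderm transcripts were also lower in the KO library, with a median log2 ratio of -2.30 over 9 measured markers of 10. Without kept barcodes that hold a UMI of PAX6, SOX1, NR2F1, NR2F2, POU3F2, MEIS2 or STMN2 (611 WT and 105 KO barcodes), the medians were -0.31 for the enzymes and -0.52 for the HIF group, and BNIP3, DDIT4, P4HA1, PKM and SLC2A1 were at -1.34, -1.002, -0.67, -0.68 and -0.78. Without barcodes with 3 or more UMIs of CRABP1, a retinoid binding protein gene, the medians were -0.34 and -0.46. P4HA1 moved from -0.87 and ADM from 0.44 to 0.33 without the first set, and the other values stayed close to those over all kept barcodes. Cells of that kind with no detected UMI of these genes can remain, so their part was not tested.

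Cells were compared after each was thinned to 1000 UMIs, which left out 0 cells. A thinned WT cell held 10.7 enzyme UMIs on average and a KO cell 9.38, with medians of 10 and 9 and the 5th to 95th percentiles from 5 to 17 and from 4 to 15. The variance over mean was 1.29 in WT and 1.15 in KO, where a value of 1 is what counting alone gives. Without GAPDH and LDHB the means were 3.30 and 2.51 and the variance over mean 1.21 and 1.06. For the HIF group the means were 0.322 and 0.219 UMIs, and the variance over mean was 1.14 in WT and 0.993 in KO. At least 2 HIF group UMIs were too rare for a description of single cells: 135 WT cells held 2, 19 held 3 and 4 held 4, against 41, 4 and 0 KO cells.

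Other genes of the pathways came from 5 lists of 83 genes, of which 79 are listed and 47 were measured in kept barcodes. Of the 47, 3 were lower in KO by 1.5-fold or more and 4 higher, beside 9.89% and 2.82% of all measured genes. Their median log2 ratio of -0.12 was near that of all genes (-0.13). Among 16 measured further HIF targets of 31, the median was -0.25, with 3 at least 1.5-fold lower and 2 higher, beside the same shares. CITED2, a feedback inhibitor of HIF, was at 87.5 CPM in WT (407 UMIs) and 36.4 CPM in KO (130 UMIs), 2.40-fold lower, and MXI1, an antagonist of MYC, at 19.4 and 8.41 CPM, 2.30-fold lower. HMOX1, the haem oxygenase that also answers oxidative stress, was at 7.74 CPM in WT (36 UMIs) and 20.5 CPM in KO (73 UMIs), a log2 ratio of 1.40 (interval 0.81 to 2.02), or 0.74 in shallow barcodes. The other 2 past 1.5-fold, named after their values were seen, were KDM3A, a histone demethylase gene (-0.83), and ERO1A, an oxidase of protein folding (0.66).

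The oxygen-sensing list had a median of -0.03 over 7 measured genes of 11, all within 1.5-fold in kept barcodes. Its genes under 10 CPM were named after their values were seen. ARNT held 33 UMIs in WT and 12 in KO (-1.08, interval -2.17 to -0.09), with -0.12 in shallow barcodes. ARNT2 held 54 and 19 UMIs (-1.12, interval -1.96 to -0.35), with -0.92 in shallow barcodes. EPAS1 held 2 and 1 UMIs and EGLN2 0 in both. VHL, which tags HIF1A for degradation, was at 74.8 and 53.3 CPM (-0.49, interval -0.75 to -0.23), HIF3A, an HIF subunit with inhibitory forms, at 21.5 and 27.7 CPM (0.37, interval -0.05 to 0.78, and 0.63 in shallow barcodes) and CUL2, the cullin of the VHL complex, at 33.5 and 30.8 CPM. At the entry of pyruvate into the mitochondrion, PDK3, a relative of PDK1, was at 24.1 CPM in WT and 41.2 CPM in KO (0.77, interval 0.41 to 1.14) and MPC1, a subunit of the pyruvate carrier, at 15.7 and 26.3 CPM (0.75, interval 0.29 to 1.21). Both were also at least 1.5-fold higher in shallow barcodes (0.86 and 0.70), opposite in direction to PDK1. DLAT, a subunit of pyruvate dehydrogenase, was at 12.7 and 9.25 CPM, and the list's median was -0.05 over 9 genes.

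The pentose phosphate list, a branch that yields NADPH and ribose, had a median of -0.09 over 6 measured genes, with 3 lower, 3 higher and all within 1.5-fold. Under scaling by the median ratio the medians of the pentose phosphate, oxygen sensing and pyruvate entry lists were above 0, at 0.02, 0.09 and 0.07. PGD, a dehydrogenase of this branch, was at 144 CPM in WT and 119 CPM in KO (-0.27, interval -0.45 to -0.09), and RPE, an epimerase, at 23.0 and 27.7 CPM (0.27, interval -0.14 to 0.68). Among 9 other glycolysis genes, within 1.5-fold in kept barcodes, SLC16A1, the MCT1 lactate carrier, was at 197 CPM in WT and 244 CPM in KO (0.31, interval 0.17 to 0.45), PGM1 at 28.4 and 21.6 CPM (-0.40, or -0.77 in shallow barcodes) and PGAM5, a mitochondrial phosphatase, at 19.1 and 23.5 CPM, with a sign that differed in shallow barcodes (-0.12).

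**Figure D5:**
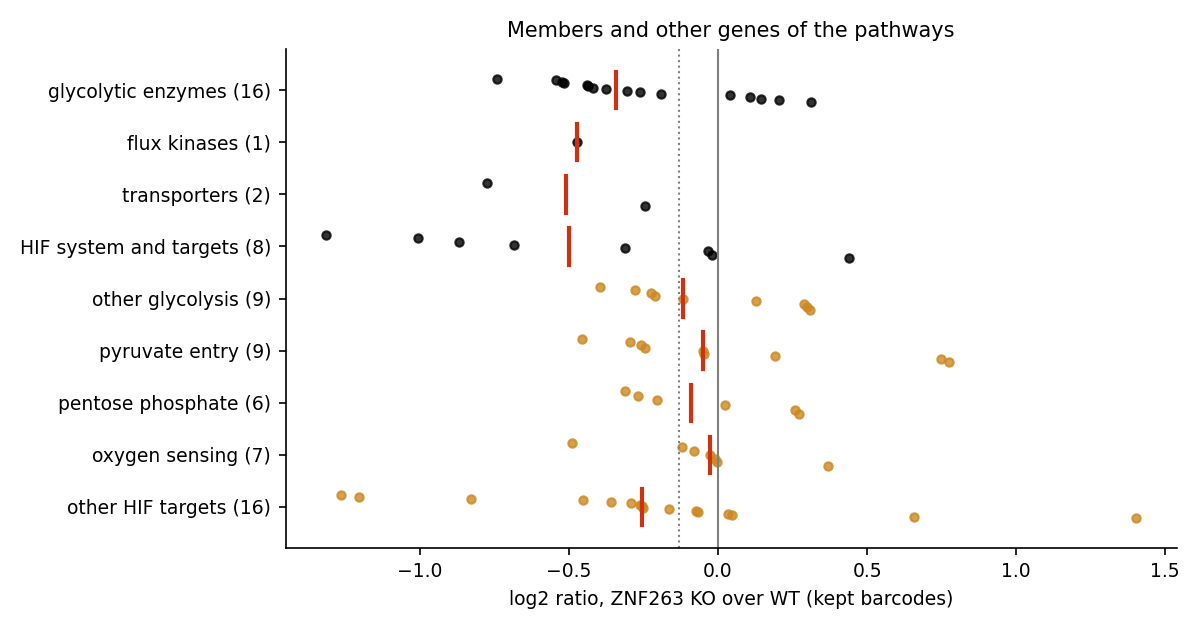
Log2 ratio of KO over WT in kept barcodes for the measured members (black) and for measured genes of the 5 other pathway lists (orange), with the number of genes in brackets, list medians as red bars and the median of all genes as a dotted line. The medians of the enzymes (-0.34), transporters (-0.51) and HIF group (-0.50) lie left of it, while those of the pentose phosphate (-0.09), oxygen sensing (-0.03) and pyruvate entry (-0.05) lists lie right of it.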

How the data were processed

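Single-cell RNA of H1 cells was measured in 1 WT and 1 ZNF263 KO library, made in microwells with barcoded beads, per the labels' protocols. Values deposited by the authors are raw UMI counts of each gene in each barcode. STAR 2.7.10a, Subread with featureCounts 2.0.1, and UMI-tools 1.1.2 appear in the submitters' processing notes, with hg38 as the build. Annotation, strand setting and treatment of overlapping genes: not given in the sources used here. The KO table holds 15 more entries than its size line states, with no gene and barcode pair listed more than once, and all were used.

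UMIs were summed per barcode class and expressed as CPM with Poisson intervals (exact), exact conditional binomial intervals for ratios and Clopper-Pearson intervals for shares. No p-value was computed. Measured means a mean of at least 10 CPM, and 1.5-fold was the threshold of size. Doublets were not called; an alternative left out barcodes over 4 times the median UMI count. Named genes were all members and, of each other list, up to 3 genes with the largest ratio and 1 direction under each scaling. SLC16A3, CA9, NDRG1 and ANKRD37 are given by UMIs. A gene that this rule names is not reported here. Members and lists were chosen with earlier results of these data known. The functions were tested on simulated data. NumPy 2.4.6, SciPy 1.17.1 and pandas 2.3.3 were used, and coordinates are RefSeq's on GRCh38.p14.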

Additional observations from a re-analysis of the deposited data

How the results depend on the processing

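Medians of the 4 groups in kept barcodes stayed below 0 under all 14 alternatives, from -0.38 to -0.22 for the enzymes, -0.56 to -0.39 for the transporters, -0.75 to -0.36 for the flux kinases and -0.78 to -0.38 for the HIF group. The median of all genes was itself below 0, at -0.13, and at -0.01 when scaled by the median ratio. In the main setting the flux kinase median is that of 1 measured gene and the transporter median that of 2. The number of enzymes at least 1.5-fold lower was 1, but 3 at a minimum of 2000 UMIs and 2 in thinned barcodes. Scaling by the median ratio shifted every log2 ratio by 0.12. In shallow barcodes it gave medians of -0.14 for the enzymes and -0.30 for the transporters. In kept barcodes BNIP3, DDIT4, P4HA1, PKM and SLC2A1 were at least 1.5-fold lower under all 14 alternatives, and BNIP3L under 11. In shallow barcodes SLC2A1 was so under 0 of 6 alternatives, while BNIP3, BNIP3L, DDIT4, P4HA1 and PKM were under all 6. The sign held for 22 of 27 members in kept barcodes, where GPI, HIF1A, EGLN3, PFKL and PFKP changed it at least once. The matching counts over all genes are not given here, so these counts do not set the members apart. The KO minus WT difference of isozyme shares varied with depth: for LDHA it was -2.56 points in kept barcodes, -3.08 at a minimum of 500 UMIs, -1.50 at 2000 and -3.04 in shallow barcodes. For SLC2A1 it was -7.61 in kept and -3.06 in shallow barcodes, for PFKM -7.89 in kept and -13.4 at 2000, and for ENO2 -0.90 in kept and -0.010 at 500. The log2 ratio of variance over mean of the HIF group was -0.19, but -0.081 when thinned to 500 UMIs. The cause of these was not tested. Leaving out barcodes with neuroectoderm or CRABP1 UMIs, or shared barcodes, was chosen after seeing the data. With 1 library per genotype no library can be left out. No paired analysis was possible because each genotype has 1 library. Members under 10 CPM have few UMIs, and loss of reads to overlapping genes (at ALDOA, SLC16A3 and ANKRD37, for example) was not tested.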
